A study of Homo sapiens with 4 samples.

Results

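The MYC and MAX network is a group of transcription factors that bind DNA as pairs through a basic helix-loop-helix leucine zipper. MYC, MYCN and MYCL pair with MAX and activate genes of growth and proliferation. MXD1, MXD3, MXD4, MXI1 and MNT pair with the same MAX and recruit SIN3 corepressors, so that both sets of proteins compete for MAX and for the same DNA word, the E-box. MLX is a MAX-like partner that links the network to sensing of glucose. MYC is known to hold back the differentiation of muscle precursors. MXD3 is known from proliferating cells in S phase, whereas MXD1 and MXD4 are known from cells that leave the cycle and differentiate. SKP2, the substrate receptor of an SCF ubiquitin ligase, is known to bind the MYC protein and to direct its degradation, which transcript levels do not show.

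The 10 members of the network were taken by gene name from the tables of 39323 genes. They were chosen with earlier results of these data known. RNA came from RD and JR1 cells, established lines of fusion-negative rhabdomyosarcoma, a muscle-like childhood tumor, both with mutated p53 according to the study. Each line carried a puromycin-selectable lentivirus with either a non-targeting control hairpin (shSCR) or 1 hairpin against SKP2 (shSKP2.2, labelled shSKP2), and uninfected cells were not analysed here. Each line gave 1 poly-A library for each hairpin, 4 in all. No difference therefore has a replicate check or a p-value, and which neighbours in an order of levels differ beyond replicate spread cannot be said. Levels are in TPM, a transcript abundance scaled by transcript length and by the library total, which can be compared between genes. The number of reads behind each value is unknown.

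A change is log2 of the ratio of TPM + 1, and the added 1 makes changes of low genes look smaller. Counting was limited to the 12985 genes whose mean TPM reached 1, and 9 of the 10 members are among them. MYCN, with a mean of 0.450 TPM, is not. A gene was called changed at 2-fold, a log2 change of at least 1 in size.

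SKP2 itself fell in RD from 92.8 to 7.40 TPM, in JR1 from 46.5 to 2.72 TPM. Short structural RNAs took 50.1% to 57.1% of all TPM with shSCR and 62.3% to 64.9% with shSKP2, which leaves less of the total for other genes. Over all counted genes the median log2 change was -0.27 for RD and -0.21 for JR1, and 61.1% of these genes were lower in both lines. With those RNAs left out and the rest scaled up to the same total (called rescaled TPM), the medians were 0.10 and 0.03. Of 7 muscle lineage markers, MYF5 was listed at 0 in every library and the summed level of the list was 359 TPM (shSCR) against 515 TPM (shSKP2) for RD and 510 against 726 TPM for JR1, and the part of this difference in the values of the members was not tested. CHRNA1 gave most of the sum, and DES (51.3 against 35.97 TPM) and CHRNG (8.04 against 7.57 TPM) were lower with shSKP2 in JR1. The sums of 3 markers each of epithelium, blood and endothelium were at most 0.450 TPM.

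The E-box CACGTG, which reads the same on both strands, was searched in the promoters that RefSeq gives for GRCh38.p14, from 250 bases before to 50 bases after the start of a gene. Of the 10 members, 9 matched an entry (12 promoters), and 3 of them held the word. MYC had no entry, so its promoter was not searched. The sites are shown because the network can bind its own genes through this word. All 3 lie upstream of the start of the gene, outside its exons, and are written 5′ to 3′ on the strand of the gene with the E-box in capitals.
MXD4: gccgggccacCACGTGctgttgctaa
MNT: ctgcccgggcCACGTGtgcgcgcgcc
MLX: gggcgcgggtCACGTGggcacgccac
The MXD4 site lies at chr4:2262332-2262357 on the minus strand, with its E-box 238 bases before the start. The MNT site lies at chr17:2401238-2401263 on the minus strand, 193 bases before the start. The MLX site lies at chr17:42567040-42567065 on the plus strand, 50 bases before the start. The word was found for 33.3% of the matched members, for 12.9% of the matched counted genes and for 8.77% of all genes with a promoter in the table. A match describes letters only, and binding was not measured here.

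MYC was the most abundant transcript of the network in each of the 4 libraries. Its level was 60.2 TPM in RD shSCR, 40.1 TPM in RD shSKP2, 49.0 TPM in JR1 shSCR and 39.9 TPM in JR1 shSKP2. It stood between the percentiles 88.3 and 90.5 of the counted genes in every library, and the 2 shSKP2 libraries were the lowest and nearly equal. The log2 change of MYC, which lies on chromosome 8 from base 127735434 to base 127742951, was -0.57 in RD and -0.29 in JR1. These values stood at percentile 23.9 of all counted changes in RD and 43.5 in JR1, and on rescaled TPM they were -0.18 and -0.01. On that scale MYC in JR1 was therefore close to level.

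MYCL, a paralog on chromosome 1 (base 39895428 to base 39901917), moved the other way. It stood at 12.2 TPM in RD shSCR and 15.2 TPM in RD shSKP2, and at 17.3 TPM in JR1 shSCR and 21.3 TPM in JR1 shSKP2. Both JR1 libraries were above both RD libraries, and within each line the shSKP2 library was the higher. The log2 changes, shSKP2 over shSCR, were 0.30 (RD) and 0.29 (JR1), at percentiles 91.1 and 87.1 of all counted genes, and 0.70 and 0.58 on rescaled TPM. The ratio of MYC to MYCL within a library does not depend on the TPM total. This ratio went from 4.95 to 2.65 in RD and from 2.84 to 1.87 in JR1, so the share of MYCL in the summed MYC family was 16.7% for RD with shSCR and 27.3% for RD with shSKP2. In JR1 this share was 25.7% with shSCR and 34.7% with shSKP2. MYCL-AS1, on the other strand, shares 226 exon bases with MYCL. It was at 0.480 and 1.21 TPM in RD and at 1.12 and 0.870 TPM in JR1, with shSCR and shSKP2.

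MYCN, the paralog that drives part of fusion-positive rhabdomyosarcoma, was the lowest member throughout (chromosome 2, base 15940550 to base 15947004). It was listed at 0.490 TPM in RD shSCR, 0.20 TPM in RD shSKP2, 0.760 TPM in JR1 shSCR and 0.350 TPM in JR1 shSKP2. At most 1.13% of the MYC family TPM came from MYCN in any library. Its log2 changes were -0.31 and -0.38, with levels below the minimum for counting. An antisense gene, MYCNOS, shares 98 exon bases with MYCN.

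**Figure D1:**
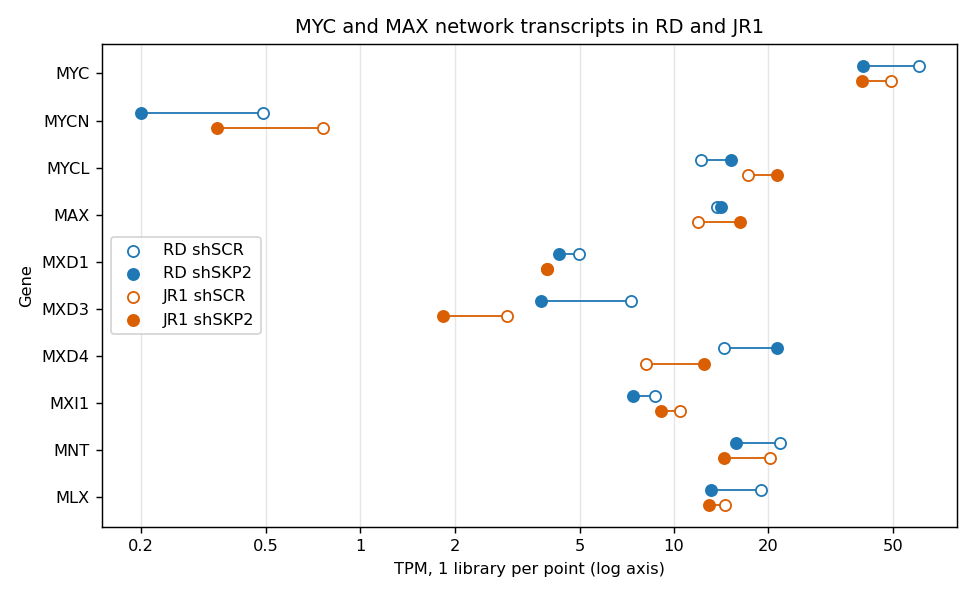
TPM of the 10 network genes on a log axis, 1 point per library, with RD in blue and JR1 in orange, open for shSCR and filled for shSKP2 (for MXD1 in JR1 both points coincide). MYC is highest and MYCN lowest in each library, and MYCL and MXD4 lie to the right with shSKP2 in both lines.

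MAX, the shared partner (chromosome 14, base 65006101 to base 65102695), was well below MYC. It had 13.7 TPM in RD shSCR, 14.2 TPM in RD shSKP2, 11.96 TPM in JR1 shSCR and 16.2 TPM in JR1 shSKP2. The RD libraries were nearly equal and the JR1 libraries were the lowest and the highest of the 4. The log2 changes, shSKP2 over shSCR, were 0.04 (RD) and 0.41 (JR1), at percentiles 78.2 and 91.0, and 0.44 and 0.71 on rescaled TPM. The summed MYC family stood at 5.31 times MAX in RD shSCR and 3.92 times MAX in RD shSKP2. In JR1 these ratios were 5.61 and 3.79, so the ratio was lower with shSKP2 in both lines. FNTB, a gene on the other strand, shares 822 exon bases with MAX and was at 2.07 to 6.26 TPM.

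Among the transcripts of the repressors, MXD4 and MXD3 moved in opposite directions in both lines. MXD4 (chromosome 4, base 2247432 to base 2262109) was at 14.4 TPM in RD shSCR, 21.3 TPM in RD shSKP2, 8.13 TPM in JR1 shSCR and 12.5 TPM in JR1 shSKP2. Within each line the shSKP2 library was the higher, and RD was above JR1 in both conditions. The log2 changes, shSKP2 over shSCR, were 0.54 (RD) and 0.56 (JR1), the highest of the 10 members in each line, at percentiles 96.2 and 94.4 of all counted genes. On rescaled TPM they were 0.95 and 0.87.

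MXD3 (chromosome 5, base 177305499 to base 177312752) was at 7.29 TPM in RD shSCR, 3.76 TPM in RD shSKP2, 2.93 TPM in JR1 shSCR and 1.83 TPM in JR1 shSKP2. Its log2 change, the lowest of the 9 counted members in each line, stood at -0.80 in RD and -0.47 in JR1, at percentiles 13.0 and 29.9, and -0.51 and -0.33 on rescaled TPM. The ratio of MXD3 to MXD4 went from 0.506 to 0.176 in RD and from 0.360 to 0.147 in JR1, a fold of 0.348 and 0.407. This pair, like the ratios of MYC to MYCL and of MXD4 to MNT, was chosen after the values had been seen. PRELID1, on the other strand, shares 1148 exon bases with MXD3 and was at 74.5 TPM in RD shSCR, 47.9 TPM in RD shSKP2, 55.4 TPM in JR1 shSCR and 50.5 TPM in JR1 shSKP2. The library kit keeps strand, but the strand setting of the quantification is not given in the sources used here. The part of PRELID1 reads in the MXD3 values was therefore not tested. The part of such reads was not tested either for MYCL, MYCN, MAX and MLX, which also share exon bases with genes on the other strand.

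MNT, the most widely expressed repressor of the network (chromosome 17, base 2384073 to base 2401060), was the highest of the repressors in 3 libraries and second to MXD4 in RD shSKP2. It had 21.8 TPM in RD shSCR, 15.8 TPM in RD shSKP2, 20.2 TPM in JR1 shSCR and 14.4 TPM in JR1 shSKP2. The lines were alike and both shSKP2 libraries were lower than both shSCR libraries. The log2 changes, shSKP2 over shSCR, were -0.44 (RD) and -0.46 (JR1), and -0.06 and -0.19 on rescaled TPM. The ratio of MXD4 to MNT went from 0.661 to 1.35 in RD and from 0.402 to 0.864 in JR1.

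MXI1 and MXD1 differed little between the conditions. MXI1 (chromosome 10, base 110207605 to base 110287365) had 8.67 TPM in RD shSCR and 7.40 TPM in RD shSKP2, against 10.5 TPM in JR1 shSCR and 9.07 TPM in JR1 shSKP2. MXD1 (chromosome 2, base 69915109 to base 69942945) had 4.99 TPM in RD shSCR, 4.31 TPM in RD shSKP2, 3.93 TPM in JR1 shSCR and 3.94 TPM in JR1 shSKP2. The changes of MXI1 were -0.20 in RD and -0.19 in JR1, those of MXD1 were -0.17 and 0.00, and all 4 were above the median of all counted genes.

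MLX (chromosome 17, base 42567100 to base 42573203) was at 18.95 TPM in RD shSCR and at 12.9 to 14.5 TPM in the other 3 libraries. Its log2 change amounted to -0.50 for RD and -0.16 for JR1, and -0.13 and 0.11 on rescaled TPM, so its direction in JR1 depended on the scaling. Of the 3 genes with an E-box in the promoter, MXD4 was higher and MNT and MLX were lower with shSKP2 in both lines as deposited. PSMC3IP, on the other strand, shares 775 exon bases with MLX and went in RD from 7.27 to 2.45 TPM, in JR1 from 2.85 to 1.34 TPM.

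0 of the 9 counted members were called at 2-fold after SKP2 depletion in either line. Of all counted genes, 1.08% were called higher and 7.37% lower in RD, and 1.78% higher and 9.05% lower in JR1. At a limit of 1.5-fold, 1 of 9 members (MXD3) was called in RD, where 26.4% of all counted genes were, and 0 of 9 in JR1, where 28.7% were. With 9 members, the share of calls was not above that of genes in general. As deposited, 6 of the 10 members were lower in both lines, as were 61.1% of all counted genes. Higher in both were 3 (MYCL, MAX and MXD4), as were 2209 of the 12985 counted genes. On rescaled TPM, 4 were lower in both (MYC, MYCN, MXD3 and MNT). On that scale 5 were higher in both, MXD1 and MXI1 having joined MYCL, MAX and MXD4. Of the 12985 counted genes, 7516 in RD and 6750 in JR1 were higher on rescaled TPM, each line taken alone. How many of them were higher or lower in both lines on that scale was not counted, so these joint counts of members have no like share beside them.

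**Figure D2:**
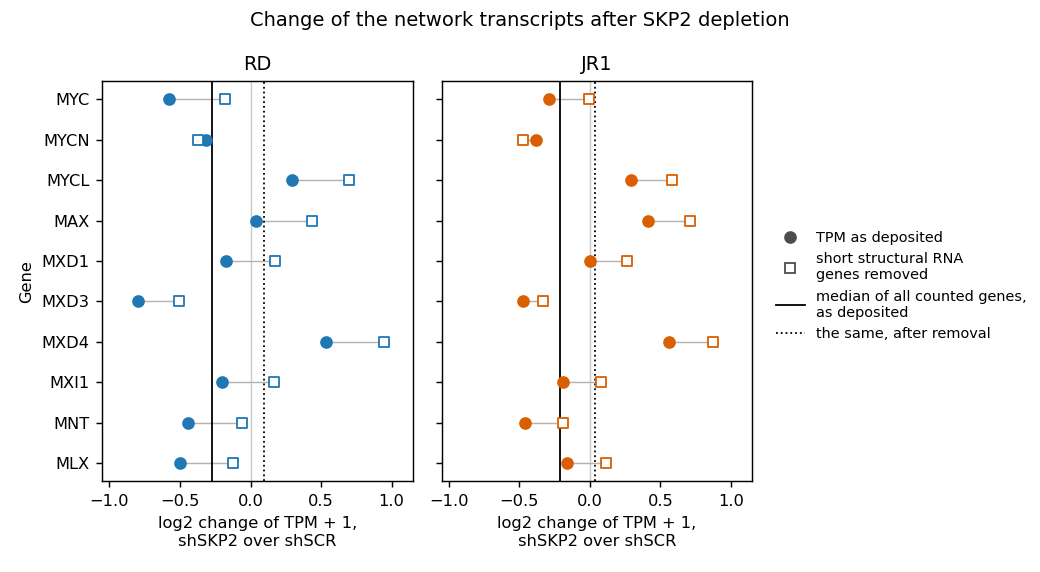
log2 change of TPM + 1 (shSKP2 over shSCR) of each member in RD (left) and JR1 (right), from 1 library per condition, with TPM as deposited (circles) and rescaled (squares). Vertical lines mark the median change of all counted genes, -0.27 in RD and -0.21 in JR1 as deposited. MXD4 lies farthest to the right, and MYCL, MAX, MXD4, MXD1 and MXI1 are right of the median in both lines on both scales.

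The balance of activators and repressors was described by the summed TPM of MYC, MYCN and MYCL over that of MXD1, MXD3, MXD4, MXI1 and MNT in the same library. The activators summed to 72.9 TPM in RD shSCR, 55.5 TPM in RD shSKP2, 67.1 TPM in JR1 shSCR and 61.6 TPM in JR1 shSKP2. The repressors summed to 57.1, 52.6, 45.7 and 41.7 TPM in the same order. The ratio was 1.28 in RD shSCR and 1.06 in RD shSKP2, a fold of 0.827, and 1.47 and 1.48 in JR1, a fold of 1.005. The sum of activators per repressor was thus lower with shSKP2 in RD and nearly the same in JR1. Without MNT, whose TPM were lower with shSKP2, the folds were 0.731 in RD and 0.856 in JR1. With MGA, another MAX partner, added to the repressors they were 0.804 and 0.954, and with MYC as the only activator 0.724 and 0.890. In JR1 each of these folds was below the 1.005 of the main sums.

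Of the 5 repressors, MXD4 took a larger share of their sum with shSKP2 in both lines, MNT, MXD3 and MXI1 took a smaller one, and MXD1 went opposite ways. MXD4 took 25.2% of the repressor sum for RD with shSCR and 40.6% with shSKP2, and 17.8% and 29.9% in JR1. The share of MNT went from 38.1% to 29.998% in RD and from 44.2% to 34.6% in JR1. MXD3 took 12.8% and 7.15% in RD, against 6.41% and 4.38% in JR1. The shares of MXI1 stayed between 14.1% and 15.2% in RD and between 21.7% and 22.9% in JR1. The share of MXD1 was 8.74% and 8.20% in RD, against 8.60% and 9.44% in JR1.

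**Figure D3:**
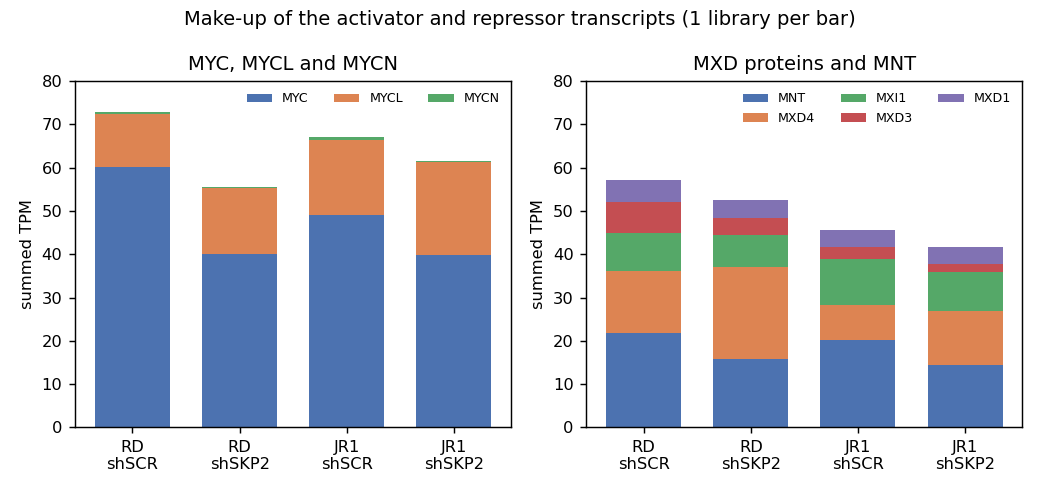
Summed TPM of MYC, MYCL and MYCN (left) and of MNT, MXD4, MXI1, MXD3 and MXD1 (right), 1 library per stacked bar. The MYC segment is shorter and the MYCL segment taller with shSKP2 in both lines, and the MXD4 segment is taller while MNT and MXD3 are shorter.

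Between the lines, RD and JR1 were compared within each condition, with libraries shared with the comparisons above. With shSCR, 7 of the 10 members were higher in RD, and with shSKP2 6 were, where 71.4% and 67.8% of all counted genes were higher in RD. 1 of 9 counted members, MXD3, was called between the lines with shSCR, where 9.94% of all counted genes were called. With shSKP2 0 of 9 were called, where 8.09% of all counted genes were. The log2 difference of MXD3, RD over JR1, was 1.08 with shSCR and 0.75 with shSKP2, and relative to the median of all counted genes it was 0.85 and 0.58, below the limit. MXD4 had the next largest differences, 0.75 and 0.73. MYCL lay farthest the other way, at -0.47 in both conditions. MYC differed by 0.29 with shSCR and by 0.01 with shSKP2. As deposited, MAX was the member whose direction differed between the conditions, at 0.18 and -0.19. Relative to the median, MAX was negative in both (-0.05 and -0.36), and the direction differed for MYC (0.06 and -0.16), MXD1 (0.05 and -0.07) and MLX (0.13 and -0.15) instead.

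By the largest gap in any of the 4 libraries, after the mean of each gene on the log2(TPM + 1) scale was subtracted, the 3 genes most like MYC were PPP1R2, SLC22A17 and GPATCH2. Their largest gaps were 0.01, 0.01 and 0.02, and 235 counted genes lay within 0.1 of MYC. The 3 genes most like MXD3, the repressor with the largest summed change as deposited (on rescaled TPM it was MXD4), were LOC101929188, ARHGEF26 and IDH1, with gaps of 0.02, 0.03 and 0.04. Only 21 genes lay within 0.1 of MXD3. With 4 libraries such likeness is a description of these values.

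The proteins around the network were read from lists written from general knowledge. The counts of called genes in every list below stand against the shares of all counted genes given above. These were 1.08% higher and 7.37% lower in RD, and 1.78% higher and 9.05% lower in JR1. MGA, a large MAX partner, stood at 15.0 TPM in RD shSCR, 15.7 TPM in RD shSKP2, 13.0 TPM in JR1 shSCR and 14.8 TPM in JR1 shSKP2. MLXIP, the glucose-sensing partner of MLX also called MondoA, was lower with shSKP2 in both lines, at 21.1 and 16.2 TPM in RD and 23.9 and 17.6 TPM in JR1. MLXIPL, its liver paralog, was at most 0.430 TPM.

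Of 16 MYC cofactors, all counted, none was called in either line, and the median log2 change stood at -0.29 for RD and -0.04 for JR1, or -0.02 and 0.18 relative to all counted genes and 0.09 and 0.25 on rescaled TPM. The lowest were RUVBL1, an ATPase of chromatin remodelers, in RD (-0.81) and CDK9, the elongation kinase, in JR1 (-0.76). The highest in RD was CCNT1, the cyclin partner of CDK9 (0.15). Of 9 subunits of the corepressor complexes that MXD proteins recruit, RBBP7, a histone-binding subunit, was the one called, and it fell in both lines. RBBP7 went in RD from 47.3 to 19.1 TPM (-1.27), in JR1 from 22.9 to 10.8 TPM (-1.02), and on rescaled TPM its changes were -0.89 and -0.78, inside the 2-fold limit. SAP30, a SIN3 subunit, had the highest change at 0.68 and 0.53, and on rescaled TPM its RD change of 1.11 was past the limit. The list median stood at -0.29 for RD and 0.00 for JR1, and at 0.10 and 0.28 on rescaled TPM.

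Of 19 genes that act on the stability of MYC proteins, FBXO32, a muscle ubiquitin ligase of the atrophy response that is also known to target MYC, rose in both lines. It went in RD from 1.18 to 5.51 TPM (1.58), in JR1 from 6.86 to 24.0 TPM (1.67), with changes of 2.21 and 2.03 on rescaled TPM. The mitotic kinases PLK1 and AURKA fell in JR1, by 1.19 and 1.05, and were at -0.66 and -0.49 in RD. On rescaled TPM the JR1 values were -0.95 and -0.81, inside the limit. FBXW7, the best-known MYC ubiquitin ligase subunit, was at 4.67 and 5.34 TPM in RD and at 5.99 and 8.41 TPM in JR1, changes of 0.16 and 0.43. The list median stood at -0.27 for RD and -0.10 for JR1, against -0.27 and -0.21 for all counted genes, and on rescaled TPM it was 0.10 and 0.18.

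Of 38 known MYC targets of the nucleolus and ribosome assembly, none was called in either line, and 31 were lower in both lines as deposited, as were 61.1% of all counted genes. The list median stood at -0.29 for RD and -0.35 for JR1, or -0.02 and -0.13 once the median of all counted genes was subtracted, or 0.10 and -0.07 on rescaled TPM, and 19 of the 38 were below the median of all genes in both lines, as were 4927 of the 12985 counted genes. NCL, the nucleolar protein nucleolin, had the lowest change, in RD from 233 to 143 TPM (-0.70), in JR1 from 177 to 98.5 TPM (-0.84). DDX18, an RNA helicase, had the highest, in RD from 24.6 to 31.8 TPM (0.36), in JR1 from 16.7 to 28.4 TPM (0.74), and on rescaled TPM its JR1 change was 1.04, past the limit. The RD median of this list thus lay close to that of all counted genes, and the JR1 median lay below it. Above the median of all counted genes were 15 of the 38 in RD and 10 in JR1.

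Of 30 known MYC targets of metabolism and growth, 29 were counted. Of these, 5 were called lower in RD and 1 in JR1, where 7.37% and 9.05% of all counted genes were. None was called higher, where 1.08% and 1.78% of all counted genes were. The transferrin receptor TFRC fell in both lines, in RD from 94.5 to 32.5 TPM (-1.51), in JR1 from 118 to 28.6 TPM (-2.00), and it stayed past the limit on rescaled TPM (-1.13 and -1.74). The other 4 in RD were FASN, of fatty acid synthesis (-1.09), IMPDH2, of guanine nucleotide synthesis (-1.07), SHMT2, of serine and folate metabolism (-1.07), and GART, of purine synthesis (-1.03), and on rescaled TPM these 4 lay between -0.69 and -0.65, inside the limit. In JR1 these 4 had changes between -0.96 for GART and -0.87 for FASN. The highest were PPAT in RD (0.01) and ODC1, the first enzyme of polyamine synthesis, in JR1 (0.34). The list median stood at -0.38 for RD and -0.44 for JR1, or -0.11 and -0.23 relative to all counted genes, and 0.02 and -0.17 on rescaled TPM.

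The E-box was found for 53.3% of the 30 matched nucleolar targets and 68.0% of the 25 matched metabolic targets, against 12.9% of matched counted genes. The lists hold genes known as MYC targets, so these shares are not independent of the choice.

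Of 6 genes known as targets of MLX pairs, 5 were counted. TXNIP, which limits glucose uptake and is the best-known MondoA target, was the highest in both lines, in RD from 34.5 to 51.2 TPM (0.55), in JR1 from 49.9 to 78.1 TPM (0.64). KLF10, a zinc finger repressor, fell in RD from 25.4 to 9.21 TPM (-1.37), in JR1 from 39.5 to 12.9 TPM (-1.54), and on rescaled TPM was at -1.03 and -1.30. ARRDC2, an arrestin-domain gene, fell in JR1 (-1.03, or -0.95 on rescaled TPM) and was at -0.60 in RD. HK2, the hexokinase of glucose entry, is also in the metabolic list and was at 0.01 and 0.33.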

How the data were processed

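RNA-seq of 4 libraries, RD and JR1 with shSCR or shSKP2, was read from gene tables in which the authors deposited 1 TPM value per gene. Per the labels and the study's methods, poly-A libraries were made with a directional kit, aligned to GRCh38 with STAR 2.7.9a, and quantified with RSEM 1.3.2. The TPM have 2 decimals and sum to 1000000 per library, so depth and counting error are unknown. Groups came from the sample titles.

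TPM were used as deposited with a pseudocount of 1. Alternatives were a pseudocount of 0.1, centring on the median of counted genes, rescaling without 655 short structural RNA genes picked by symbol, counting every gene or only those averaging 5 TPM or more, a 1.5-fold limit, and other sums for the ratio of families. The members and lists were chosen with earlier results of these data known. Named genes were the members, SKP2, the highest and lowest gene of each list in each line, genes called in both lines, and nearest patterns. 1 gene that this rule names is not reported here. Genes called in 1 line, genes that overlap a member, and MLXIPL, FBXW7 and HK2 were added after their values were seen. Promoters came from RefSeq and shared exons from GENCODE release 44. The script was tested on simulated data. Python 3.11.15, numpy 2.4.6 and pandas 2.3.3 were used.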

Additional observations from a re-analysis of the deposited data

Results flagged for a closer look

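PVT1, a noncoding transcript beside MYC, was higher with shSKP2 for RD (log2 change 0.21) and lower for JR1 (-0.11), and the difference of 0.33 was not tested. Its level was 6.48 TPM in RD shSCR, 7.67 TPM in RD shSKP2, 6.50 TPM in JR1 shSCR and 5.93 TPM in JR1 shSKP2. On rescaled TPM, PVT1 was higher with shSKP2 in both lines (0.61 and 0.15).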

How the results depend on the processing

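Each difference was taken within a line or within a condition, and a model over both lines with the line as a block was not run. A value was taken as moved when it shifted by more than 1.5-fold. With the limit of 1.5-fold, the members called were 1 in RD after SKP2 depletion, and 2 between the lines with shSCR and 2 with shSKP2, in place of 0, 1 and 0. The call of MXD3 between the lines with shSCR was lost (0 called) relative to the median of all counted genes, on rescaled TPM, and with the minimum mean of 5 TPM, which leaves MXD3 out. The median of the MLX targets in JR1 was 0.33 with that minimum, which left fewer genes, against -0.50. The ratio of MYC family to MXD family transcripts without MNT was 2.06 in RD shSCR, 2.63 in JR1 shSCR and 2.26 in JR1 shSKP2, and with MYC alone it was 0.956 in JR1 shSKP2. The change of MYCN in RD was -0.98 with the pseudocount of 0.1. The other list medians and ratios, and the changes of the other members, stayed within 1.5-fold of their values as deposited. That span is wider than most list medians, so a sign could change within it. On rescaled TPM several list medians turned from negative to positive, such as the nucleolar targets in RD (-0.29 to 0.10). The changes of MXD1 in RD, MXI1 in both lines and MLX in JR1 also turned positive on that scale. Depth is unknown, which limits MYCN, MXD3 and MXD1 most.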

Other observations

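Other transcripts beside the MYC genes, and MINCR, were scarce. MINCR, a noncoding RNA named for its induction by MYC, lies on chromosome 8 (base 143280155 to base 143281700), away from MYC. Its level went in RD from 0.850 to 0.190 TPM, in JR1 from 1.22 to 0.350 TPM. MYCNOS, antisense to MYCN, was at 2.02 and 0.690 TPM in RD and at 0.950 and 0.930 TPM in JR1. MYCNUT was at most 0.290 TPM, CASC11 at most 0.270 TPM and CCAT1 at most 0.0400 TPM in any library. Among these 5 genes MYCNOS was the one with a mean above 1 TPM.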
